A study of Mus musculus with 20 samples.

Results

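The E11.5 XY mouse gonad was set against a pool of gonads and whole embryos within each of 20 arrays. All 20 arrays of the series entered, with gonad RNA in the Cy5 channel and the pool in the Cy3 channel of every one. Probes were taken if either channel was well above background on 15 or more arrays, which kept 35318 of 41174 gene probes, standing for 23951 genes. Dyes were not swapped, so dye bias and the difference between gonad and pool cannot be told apart for any single gene.

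Each array held RNA from 1 pair of XY gonads, dissected free of the mesonephroi from embryos with 17 to 21 tail somites. The 4 genotypes had 5 arrays each: C57BL/6J, 129S1/SvImJ, and their reciprocal hybrids (B6x129S1)F1 and (129S1xB6)F1. The pool came from a Sox9-ECFP(C57BL/6J) x CD-1 cross and joined, all at E11.5, whole embryos (4 XY and 2 XX) with dissected gonads (XY from 4 embryos and XX from 3, as pairs). It therefore holds gonad RNA as well, carries the Sox9-ECFP transgene, is part CD-1 by descent, and is the same RNA on each array, so that its own spread is absent from every test. A ratio describes gonad RNA relative to that mixture, and fewer cells of a type cannot be told apart from less RNA per cell.

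The gonad forms as a ridge of coelomic epithelium on the mesonephros. Transcription factors such as NR5A1, WT1, GATA4 and LHX9 are needed for the ridge to grow, and primordial germ cells migrate into it. In XY gonads SRY then activates SOX9 in supporting cells, which become Sertoli cells, while XX gonads take the ovarian path. At this stage the whole embryo is rich in brain, heart, liver, somite and limb bud.

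All ratios are log2 of gonad over pool, so that 1 is a 2-fold higher gonad signal and negative values are higher pool signals. Net median signals ran between 87.3 and 207 in Cy5 (gonad) and between 169 and 246 in Cy3 (pool). Between 77.9% and 88.0% of gene probes were well above background in Cy5, against 82.6% to 89.3% in Cy3. Pairwise correlations of the ratios over genes were 0.793 to 0.925 within a genotype and 0.718 to 0.930 between genotypes, a description of arrays that share the pool and the dyes. The median over all genes tested was 0.10. The 259 probes above background on exactly 15 arrays had a median ratio of 0.09, and the 194 left out at 14 arrays one of 0.14.

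Several arrays stood apart in sets of genes, and each was kept. On array H1 (C57BL/6J), 88 genes were more than 1 log2 unit above all the other 19 arrays, and 19 of the 21 liver genes tested had their highest ratio there. Afp, the fetal albumin-like protein of liver and yolk sac, was at 2.78 on H1, against -7.50 to -3.70 on the rest. Array H4 (C57BL/6J) had 55 such genes, among them interferon-response genes: Rtp4 was at 5.14 on H4, against -0.44 to 0.74 elsewhere, and Isg15 at 4.95, against -0.47 to 0.89. Array L4 ((129S1xB6)F1) had 10, with Myh3, embryonic myosin heavy chain, at -0.995 on L4, against -4.403 to -3.14. Array M6 ((129S1xB6)F1) had 22, with Alas2, the first enzyme of haem synthesis in red cells, at 2.19 on M6, against -0.35 to 1.06. Array K2 (C57BL/6J) had 102 genes more than 1 log2 unit below all the others. By the same measure array C3 ((B6x129S1)F1) had 35 genes above and 12 below, and array D4 (129S1/SvImJ) had 29 below. Rtp4, Isg15 and Alas2 were chosen as examples after their values were seen.

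**Figure D1:**
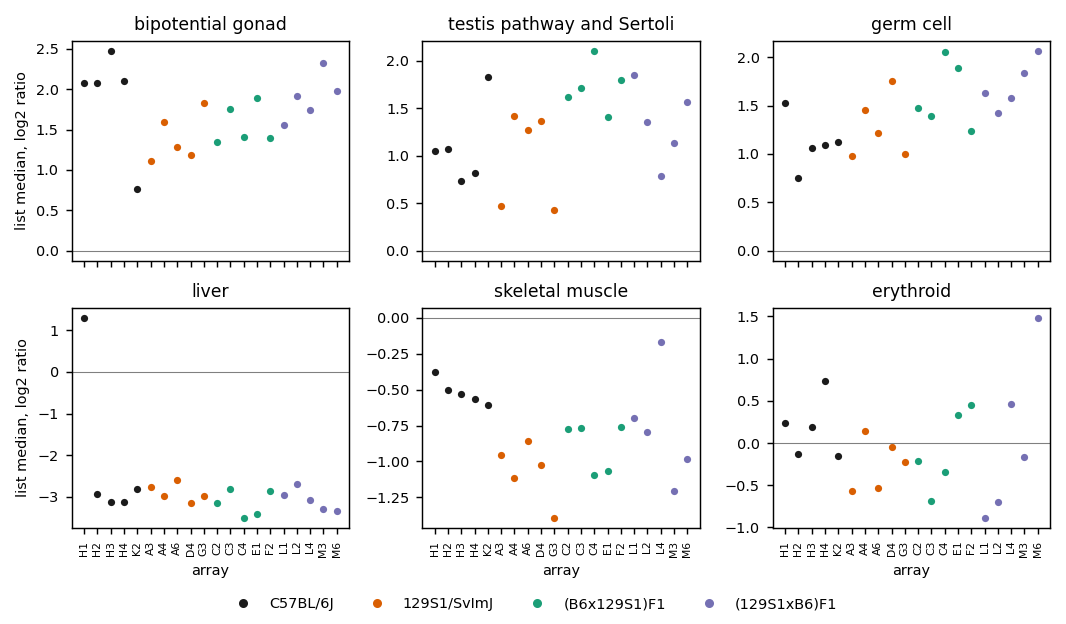
Median log2 ratio of gonad over pool (vertical axis) on each of the 20 arrays (horizontal axis, by sample name) for 6 gene lists, with points coloured by genotype. The liver list is at 1.30 on array H1 and between -3.51 and -2.59 on the others, and the erythroid list is at 1.48 on array M6.

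Genes were called where limma's treat put the ratio beyond 2-fold, with Benjamini-Hochberg adjusted p under 0.05, in each of the 4 genotypes and in the same direction. By this rule 393 genes (1.64% of those tested) were higher in the gonad and 657 (2.74%) were lower. The median ratio of the genes called was 2.45 for those higher and -2.29 for those lower. The mean ratio passed 4 in 49 of the higher genes, and 42 of the lower genes were below -4. All 393 higher genes had a positive ratio on all 20 arrays, and 646 of the 657 lower genes a negative one on all 20. On each of the 5 slides, taken alone, the mean ratio of every higher gene was above 1 and that of every lower gene below -1. The genes were called on these same 20 arrays, so neither the signs nor the slide means are a separate test. Background correction by normexp with loess, in place of the scanner software's processed signals, called 200 higher and 357 lower genes, all of them among the 393 and the 657.

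**Figure D2:**
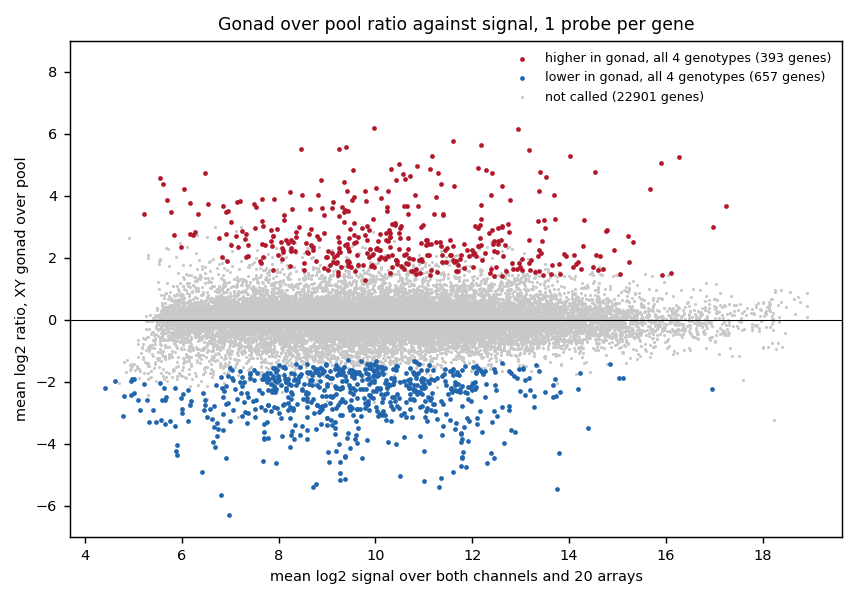
Mean log2 ratio of gonad over pool (vertical axis) against mean log2 signal over both channels (horizontal axis), 1 point per gene for 23951 genes. The 393 genes higher in the gonad and the 657 lower genes lie among dim and bright probes alike, with means between -6.30 and 6.19.

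The higher genes were measured above background in the gonad channel on at least 15 arrays in all 393 cases, and in the pool channel in 367. Of the 657 lower genes, 657 were measured in the pool on 15 or more arrays and 568 in the gonad. For 28 lower genes the gonad signal was not well above background on any array, and for 7 higher genes the pool signal was not. Where a channel was not well above background on any array of at least 1 genotype, the fold is given as a lower limit. The limit is taken from quantile-normalized channel means against the lowest measured signal, and it too is open to dye bias. An adjusted p beside such a limit belongs to the ratio, since the limit itself was not tested. Other probes for the called genes mostly had ratios of the same sign: 173 of 178 (97.2%) for higher genes and 333 of 379 (87.9%) for lower genes. They were beyond 2-fold the same way in 64.0% and 54.4%. Other probes are given below for some genes only, so a gene without such a value may still have a disagreeing probe.

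The largest mean ratios were those of Dppa3 and Amhr2. Dppa3, a maternal and germ cell protein that shields methylated DNA, had ratios of 5.24 at the lowest, 6.19 at the median and 6.68 at the highest array. Its mean of 6.19 ± 0.07 (SE, 20 arrays) is a 72.8-fold difference, with a largest adjusted p of 2.41e-15 among the 4 genotypes (limma treat). Amhr2, the receptor of anti-Müllerian hormone, had ratios of 5.65, 6.21 and 6.58 at the lowest, median and highest array. By genotype Amhr2 averaged 6.22 ± 0.26 in C57BL/6J, 6.12 ± 0.34 in 129S1/SvImJ gonads, 6.02 ± 0.38 in (B6x129S1)F1 and 6.27 ± 0.25 in (129S1xB6)F1 (SD, n = 5 each), and the 4 groups overlapped. The Amhr2 mean of 6.16 is a 71.4-fold difference (largest limma adjusted p = 8.94e-16). No array of any genotype came near an equal signal for either gene.

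The promoters of called genes were read to show what sequence stands upstream of the members with the largest ratios. RefSeq promoters (build GRCm38.p6, 300 bases each, most of them before the start) matched 13 of the 20 highest genes named here and 15 of the 20 lowest. The motif searched was AAGGTCA, on both strands, the core of sites that bind NR5A1 and other orphan nuclear receptors. It was in the promoters of Amhr2, Cst8 and Aldh3b1 among the 13 and of Ambp among the 15, and not in that of Nr0b1. These 5 are given 5′ to 3′ on the strand of the gene, with the motif or its reverse complement in capitals:
Amhr2 (chr15:102445117-102445416, plus strand): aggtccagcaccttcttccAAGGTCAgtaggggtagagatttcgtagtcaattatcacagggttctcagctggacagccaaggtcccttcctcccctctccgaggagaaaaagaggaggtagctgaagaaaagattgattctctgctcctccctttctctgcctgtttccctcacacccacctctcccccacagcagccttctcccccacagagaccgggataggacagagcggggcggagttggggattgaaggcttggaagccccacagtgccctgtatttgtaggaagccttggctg
Cst8 (chr2:148798589-148798888, plus strand): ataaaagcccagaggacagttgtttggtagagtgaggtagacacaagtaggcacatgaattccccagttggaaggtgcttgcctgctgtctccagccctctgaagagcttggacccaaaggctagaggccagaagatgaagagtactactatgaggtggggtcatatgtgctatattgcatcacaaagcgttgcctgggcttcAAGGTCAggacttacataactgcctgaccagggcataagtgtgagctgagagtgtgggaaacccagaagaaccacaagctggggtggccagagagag
Aldh3b1 (chr19:3929729-3930028, minus strand): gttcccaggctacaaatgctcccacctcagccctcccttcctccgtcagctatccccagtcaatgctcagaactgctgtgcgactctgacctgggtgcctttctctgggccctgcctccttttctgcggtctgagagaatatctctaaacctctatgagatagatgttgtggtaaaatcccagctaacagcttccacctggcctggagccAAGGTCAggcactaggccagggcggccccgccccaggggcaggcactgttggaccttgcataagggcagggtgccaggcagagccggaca
Nr0b1 (chrX:86191525-86191824, plus strand): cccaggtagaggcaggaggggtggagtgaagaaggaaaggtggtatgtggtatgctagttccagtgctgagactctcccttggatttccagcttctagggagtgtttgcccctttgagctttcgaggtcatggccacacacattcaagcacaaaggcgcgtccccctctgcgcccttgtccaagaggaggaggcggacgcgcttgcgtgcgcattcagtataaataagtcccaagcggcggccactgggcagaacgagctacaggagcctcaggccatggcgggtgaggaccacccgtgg
Ambp (chr4:63154123-63154422, minus strand): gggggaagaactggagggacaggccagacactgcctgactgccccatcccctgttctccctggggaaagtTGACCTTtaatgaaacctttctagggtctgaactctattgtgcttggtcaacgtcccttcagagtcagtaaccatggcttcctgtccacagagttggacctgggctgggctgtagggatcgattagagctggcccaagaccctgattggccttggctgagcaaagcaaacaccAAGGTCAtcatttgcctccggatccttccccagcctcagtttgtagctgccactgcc

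The Amhr2 motif began 231 bases before the start, that of Cst8 47 bases before and that of Aldh3b1 40 bases before. The Ambp promoter, of a gene lower in the gonad, held it on both strands. Among all matched genes the motif stood in 13 of 275 promoters of higher genes (4.73%), 16 of 416 of lower genes (3.85%) and 635 of 14411 of all genes tested (4.41%). These shares differ little, and a match is a string of letters, not a bound site. The median ratio of observed to expected CpG was 0.551 in promoters of higher genes, 0.615 in those of lower genes and 0.670 over all matched genes.

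Of 17 genes of the bipotential gonad, all tested, 8 were higher and 1 was lower in all 4 genotypes and 8 were not called, with a median ratio of 1.95. Over all genes tested 1.64% were higher and 2.74% lower, with a median of 0.10. Nr0b1, the X-linked nuclear receptor DAX1, had ratios of 4.58, 5.53 and 6.75 at the lowest, median and highest array, a 47.5-fold difference at the mean (largest limma adjusted p = 1.40e-12). Wt1, the zinc finger factor of urogenital mesenchyme and mesothelium, lay in a narrow band, at 3.83, 4.32 and 4.72. The Wt1 genotype means were 4.45 ± 0.21 in C57BL/6J, 4.07 ± 0.23 in 129S1/SvImJ gonads, 4.38 ± 0.31 in (B6x129S1)F1 and 4.36 ± 0.31 in (129S1xB6)F1 (SD, n = 5 each). Tcf21, a bHLH factor of urogenital mesenchyme, averaged 4.03 and Lhx9, a LIM factor the ridge needs, 3.099. Podxl, the sialomucin of coelomic and glomerular cells, averaged 2.98, and Zfpm2, the GATA4 cofactor FOG2, 2.94. Gata4 itself averaged 2.57 (1.82 to 3.72). All of these were separated from an equal signal on every array.

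Nr5a1, which encodes the nuclear receptor SF1, averaged 2.13 with a wider range of 0.77 to 3.01. Emx2, a homeobox factor of the urogenital ridge, averaged 1.95 and passed the test in 3 of 4 genotypes, so it was not called. The remaining members lay near or below the pool: Osr1 at -0.25, Cbx2, a polycomb protein, at -0.86 and Insr, the insulin receptor, at -1.12. On array K2 the list median was 0.77, against 1.11 to 2.47 on the other arrays, and without K2 the counts were again 8 and 1.

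**Figure D3:**
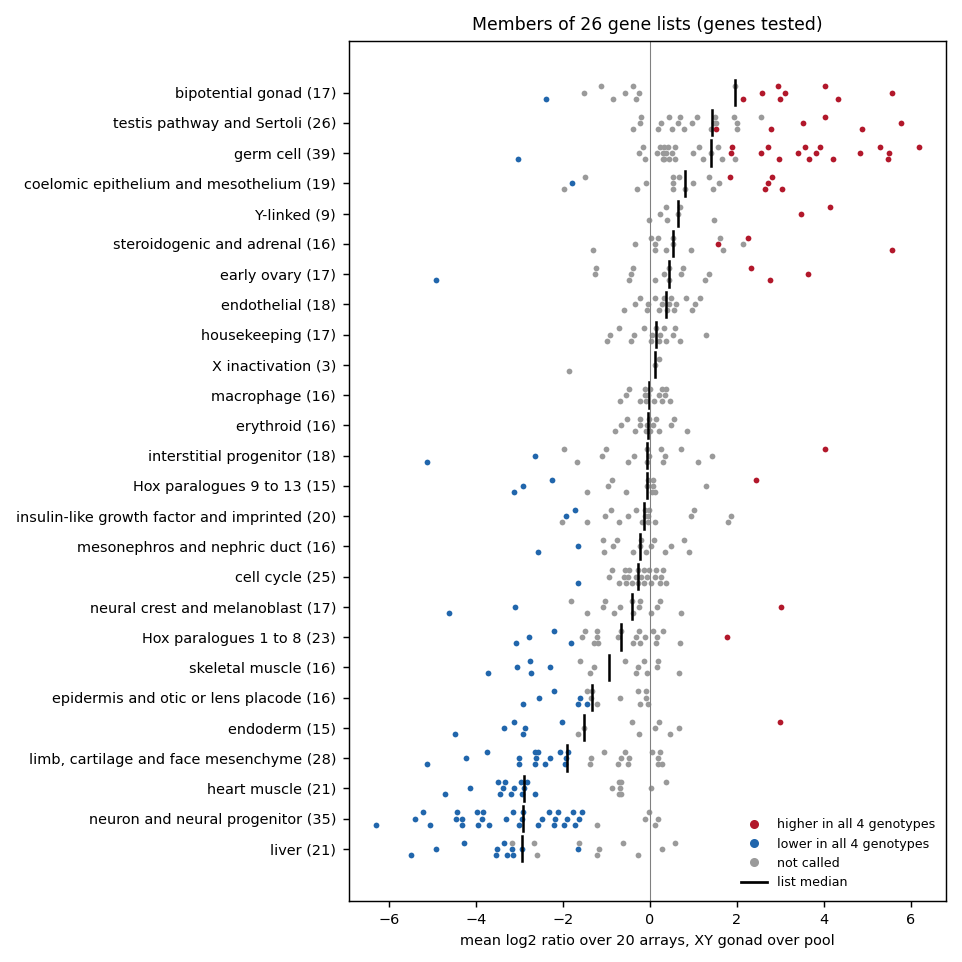
Mean log2 ratio over 20 arrays (horizontal axis) of each gene tested in 26 lists (rows, with the number tested), coloured by the call, with black bars at list medians. The bipotential gonad list has the highest median (1.95) and the liver list the lowest (-2.93).

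Genes of the testis pathway and Sertoli cells were divided between large ratios and ratios near the pool. Of 26 tested, 6 were higher and 0 lower, and the median was 1.43. Inhbb, the beta B subunit of inhibin and activin, ran at 4.403, 5.86 and 6.64 at the lowest, median and highest array (54.6-fold at the mean, largest limma adjusted p = 1.29e-14). A dimmer probe for Inhbb averaged 1.01, so the size of its ratio depends on the probe. Cst9, the cystatin testatin of fetal Sertoli cells, ran at 1.97, 4.85 and 6.43. Dhh, the hedgehog ligand Sertoli cells send to neighbouring cells, had the largest standard error of the higher genes, with ratios of 0.50, 4.49 and 6.36. By genotype Dhh averaged 2.98 ± 1.41 in C57BL/6J, 3.47 ± 2.13 in 129S1/SvImJ gonads, 5.71 ± 0.89 in (B6x129S1)F1 and 3.89 ± 1.10 in (129S1xB6)F1 (SD, n = 5 each). The genotypes overlapped, and the F test among them gave an adjusted p of 0.256 (limma). The call of Dhh was lost under 9 of the settings tried, among them leaving out array A4, H1, H4 or K2.

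Adamts16, a secreted metalloproteinase, averaged 3.51, Dmrt1, a DM domain factor of Sertoli and germ cells, 2.78, and Gadd45g, a signalling adaptor upstream of Sry, 1.51. A second probe for Adamts16 averaged 0.90. The genes that mark the switch itself did not pass the 2-fold test in any genotype. Sox9 had ratios of -1.69, 0.51 and 1.45 at the lowest, median and highest array, and its 2 dimmer probes averaged 0.36 and 0.19. Sry averaged 0.65 and was well above background on 13 arrays in the gonad and 14 in the pool. Amh averaged 0.52 (-0.14 to 1.62). Tesc (2.54) and Etv5 (1.93) passed in 3 of 4 genotypes, Aard (1.99) in 2 and Fgf9 (1.47) in 1. The lowest arrays of Tesc and Fgf9 were below an equal signal, at -0.63 and -0.32, and those of Etv5 and Aard above it, at 0.15 and 0.32. Array medians of the list ran between 0.43 and 2.11. Without array H4, or without K2, 5 members were higher.

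The early ovary list had 3 higher genes and 1 lower gene of 17 tested, with a median of 0.43. Sprr2d, a small proline-rich protein with near-identical copies that the probe may also read, averaged 3.64. Kitl, the ligand of the KIT receptor that germ cells depend on, averaged 2.77, and Wnt4, the ovarian and kidney signal, 2.32. By these probes both were above 1.5 on every array, with lowest ratios of 2.01 and 1.54. A second probe for Kitl averaged 1.19. Foxl2, the granulosa cell factor, was at 0.12 and Fst, the activin antagonist follistatin, at -0.48. Irx5, a homeobox gene of ovary and of neural and limb tissue, was lower (largest limma adjusted p of the ratio = 2.84e-13). Its gonad signal was not well above background on any array, and the pool was at least 10.5-fold higher. Without array L4 the list again had 3 higher and 1 lower, with a median of 0.42.

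Germ cell genes had the most higher members of the 26 lists. Of 39 tested, 16 were higher and 1 was lower, with a median of 1.41 and array medians of 0.75 to 2.07. Without array K2, 14 were higher. After Dppa3 came Dppa4, a pluripotency-linked SAP domain protein, at 5.50 (4.42 to 6.43), and Dppa5a, an RNA-binding KH domain protein, at 5.46 (4.24 to 6.39). Rhox6 and Rhox9, X-linked reproductive homeobox genes, averaged 5.29 and 4.83. Stk31, a germline kinase, and Piwil2, a piRNA-binding protein, were at least 8.04-fold and 3.46-fold higher in the gonad, since the pool signal was well above background on no array of at least 1 genotype. The RNA helicase Ddx4 averaged 3.81 (2.35 to 5.17), Taf7l, a germ cell TFIID subunit, 3.90 and Tdrd12, a Tudor protein of the piRNA pathway, 3.57. All of these lay above the pool on all 20 arrays.

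The core pluripotency genes that germ cells keep had smaller ratios. Pou5f1 ran from 1.54 at the lowest array to 4.07 at the highest, with a mean of 2.71, and Nanog averaged 1.89 (1.09 to 3.26). Sox2, which germ cells share with neural tissue, was the lower member at -3.03 (-4.53 to -2.05). Dazl (1.66) passed in 3 of 4 genotypes. Dppa2 at 0.58, Kit, the stem cell factor receptor, at 0.22 and Stra8, the meiotic entry gene, at 0.17 did not pass in any. Within the Dppa genes, grouped here by symbol after their values were seen, 3 of 4 were higher. Of 8 Rhox genes tested 4 were higher, the others of these being Rhox5 (4.62) and Rhox2a (3.25), while Rhox11 was at 0.01. The 16 Mage genes had 1 higher member, Mageb4, at 3.80 and at least 13.1-fold. Its pool signal was well above background on 11 arrays, and on no array of at least 1 genotype.

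**Figure D4:**
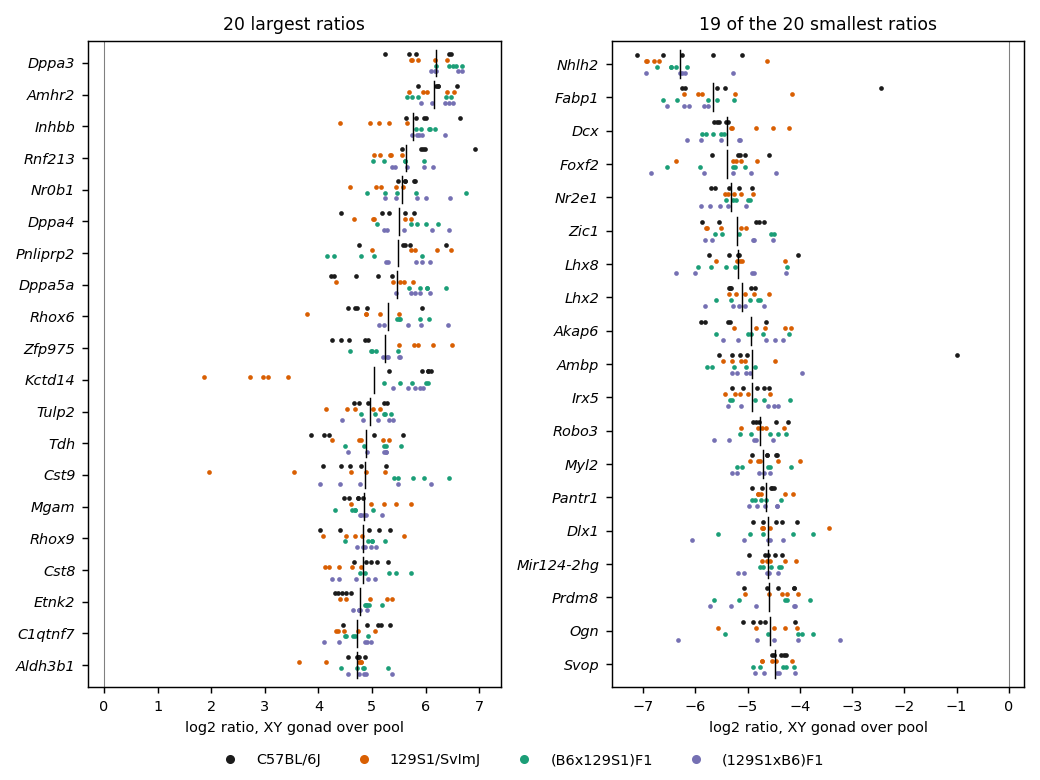
Log2 ratio of gonad over pool (horizontal axis) on each of the 20 arrays for the 20 called genes with the largest means (left) and 19 of the 20 with the smallest (right), coloured by genotype, with black bars at the means. Kctd14 is lower in 129S1/SvImJ than in the other genotypes, and Ambp and Fabp1 have 1 high array of C57BL/6J each.

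The list of steroidogenic and adrenal genes had 3 higher members of 16 tested and none lower, with a median of 0.52. Cyp11a1, which cuts the cholesterol side chain, had ratios of 1.16, 2.23 and 3.23 at the lowest, median and highest array, and a second probe averaged 2.70. Fdxr, which passes electrons towards it by way of ferredoxin, averaged 1.57. The third is Nr0b1, a nuclear receptor and not an enzyme, which is counted in the bipotential gonad list as well. Star, the cholesterol carrier, averaged 1.61 and Hsd3b1 1.69, passing in 1 and 3 of the genotypes, while Cyp17a1, the androgen branch enzyme, was at 0.18. The call of Fdxr was lost under 16 of the settings tried, more than that of any other named gene.

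Genes of the coelomic epithelium and mesothelium had 5 higher members and 1 lower of 19 tested, with a median of 0.81. Muc16, a surface mucin of mesothelium, averaged 3.03, and its dimmer probe 0.10. Aldh1a1 (2.81) and Aldh1a2 (1.84) make retinoic acid, and Lrrn4 (2.71) and Upk3b (2.64) mark mesothelium. Upk3b varied little, between 2.24 and 3.11. Gpm6a, a membrane glycoprotein also of neurons, was lower at -1.79. Without array M6, 4 members were higher.

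Several of the 20 largest ratios belonged to genes on none of the lists. Rnf213, a large ubiquitin ligase, had ratios of 5.01, 5.58 and 6.92 at the lowest, median and highest array (49.8-fold at the mean). Pnliprp2, a pancreatic lipase relative, averaged 5.49, Mgam, an intestinal maltase, 4.86 and Tdh, threonine dehydrogenase, 4.89. Tulp2, a tubby-like protein of testis, averaged 4.96 and Cst8, a cystatin of the reproductive tract, 4.83. Etnk2, an ethanolamine kinase, averaged 4.77 by its brightest probe and 1.33 by another. C1qtnf7, a secreted C1q relative, and Aldh3b1, an aldehyde dehydrogenase, both averaged 4.72. Zfp975, a zinc finger gene, averaged 5.24, with other probes between 0.64 and 4.45. The lowest single array among these genes was 3.64, for Aldh3b1.

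Glutathione transferases, grouped by symbol after their values were seen, had 3 higher members of 7 in the mu class and 2 of 4 in the alpha class. Gstm1, Gstm2 and Gstm3 averaged 4.21, 4.01 and 3.202, Gsta3 averaged 3.52, and Gstm5 and Gsta4 were at -0.59 and 0.05. Mu-class sequences are alike, so that a probe may read more than 1 of them. Gata6, a zinc finger factor placed on the endoderm list, was higher at 2.99 (2.62 to 3.52), as Gata4 was. The other 4 Gata genes tested were not called.

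The neuron and neural progenitor list had the largest share of lower genes: 30 of 35 tested were lower, none was higher, and the median was -2.92. Nhlh2, a bHLH factor of early neurons, was not well above background in the gonad on any array. Its ratios of -7.11, -6.42 and -4.63 at the lowest, median and highest array therefore rest on gonad signals near background. The pool was at least 24.8-fold higher for Nhlh2 (largest limma adjusted p of the ratio = 2.77e-11). Dcx, doublecortin of migrating neurons, was measured in both channels on all arrays and had ratios of -6.17, -5.48 and -4.21. Its 2 other probes averaged -3.39 and -0.36. Zic1, a dorsal neural zinc finger gene, averaged -5.20. Neurofilament light chain Nefl averaged -4.31, the Notch target Hes5 -4.32 and beta III tubulin Tubb3 -2.47. The members not called included Six3 (0.19), Sox21 (0.11) and Sox1 (-0.11).

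Among the other genes with the smallest mean ratios, Nr2e1, a nuclear receptor of neural stem cells, averaged -5.31, Lhx8, a ventral forebrain factor, -5.19 and Akap6, a kinase anchor of heart and brain, -4.94. Robo3, the axon crossing receptor, averaged -4.77, and the noncoding genes Pantr1 and Mir124-2hg -4.64 and -4.60. The highest single array among these genes was -4.03, for Lhx8. The neural crest list was mixed, with 1 higher and 2 lower of 17. Dct, dopachrome tautomerase of melanoblasts, was higher at 3.02, and its second probe averaged 2.73. Sox10 and Mitf, the defining factors of crest and melanoblasts, were at -0.38 and 0.03, and Dlx1 and Dlx2, of branchial crest and forebrain, at -4.62 and -3.09. Dlx1 was well above background in the gonad on 8 arrays, so its ratio rests on signals near background.

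The liver list lay far below the pool on all arrays except H1. Of 21 tested, 11 were lower and none higher, with a median of -2.93. Without array H1 the count was 15 lower and the median -2.998. Ambp, the bikunin precursor, had ratios of -5.78, -5.13 and -0.98 at the lowest, median and highest array, the last on H1. Rbp4, retinol-binding protein, was at -4.55 at the median and 1.54 on H1. Fabp1, the liver fatty acid carrier, was well above background in the gonad on 1 array. The pool was at least 17.1-fold higher for Fabp1 (largest limma adjusted p of the ratio = 4.01e-08). Alb, albumin, averaged -3.29 and stayed below the pool on H1, at -2.26. Apoa1 (-2.59), Fgb (-3.16) and Fgg (-2.65) passed in 3 of 4 genotypes, and each had a positive ratio on H1. The call of Afp was lost without array H2, H3, H4 or K2.

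Heart muscle genes had 13 lower members of 21 and none higher, with a median of -2.89. Myl2, the ventricular light chain, had ratios of -5.31, -4.66 and -3.99 at the lowest, median and highest array. Csrp3, a muscle LIM protein, averaged -4.13, the slow myosin Myh7 -3.49 and the natriuretic peptide Nppa -2.94. Nkx2-5, the cardiac homeobox factor, was at -0.71 and Nppb at -0.68, neither called. The skeletal muscle list had 5 lower of 16 with a median of -0.93: Myh3, Acta1 (-3.07), Pax3 (-2.76), Chrng (-2.72) and Ttn (-2.29). A second probe averaged -4.08 for Myh3, but -0.31 for Pax3 and 0.04 for Chrng. Without array L4, 6 members were lower, and without M6, 4 were lower. The call of Chrng was lost under 6 of the settings tried, among them leaving out array M3 or M6.

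Limb, cartilage and face mesenchyme had 15 lower members of 28 and none higher, with a median of -1.91. Lhx2, a limb and brain LIM factor, averaged -5.12, Pax1, of the sclerotome, -4.23 and Pitx1, the hindlimb factor, -3.01. A second probe for Pax1 averaged -0.33, so the size of its ratio depends on the probe. Tbx5, the forelimb factor, averaged -2.65 and Col2a1, cartilage collagen, -2.42. Foxf2, a mesenchymal forkhead gene of gut and face, averaged -5.39 and was measured in the gonad on 10 arrays. Ogn, a small proteoglycan, averaged -4.57 and was measured on 9. Those 2 ratios rest on gonad signals near background.

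Epidermal and placodal genes had 6 lower members of 16 and none higher, with a median of -1.34. Perp, a desmosome protein, averaged -2.54, the lens crystallin Cryaa -2.19, keratin 5 (Krt5) -1.61 and Trp63, the epidermal p63, -1.44. The endoderm list had 6 lower and 1 higher of 15, with a median of -1.53. Shh was well above background in the gonad on 1 array, and the pool was at least 12.5-fold higher (largest limma adjusted p of the ratio = 2.43e-13). Nkx2-1, of lung and thyroid, was at least 7.25-fold higher in the pool. Foxa2 averaged -3.12, with -1.16 on array H1. The median of the endoderm list moved to -0.41 where both channels had to be above background.

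Lists of cells that run through both gonad and embryo lay near the pool. Endothelial genes had none called of 18 (over all genes 1.64% were called higher and 2.74% lower), with a median of 0.37, from Pecam1 at 1.14 to Cldn5 at -0.59. Erythroid genes had none called of 16, with a median of -0.04 and 1.48 on array M6; without M6 the median was -0.12. Macrophage genes had none called of 16, with a median of -0.02. The 17 housekeeping genes tested had none called and a median of 0.14. Cell cycle genes had 1 lower of 25, Ccnd1, cyclin D1, at -1.66, and a median of -0.27. Imprinted genes had 2 lower of 20, Nnat (-1.73) and Snrpn (-1.92), both also expressed in brain. The call of Snrpn was lost without array L2 or M6. Igf2 and H19 were at -0.12 and -0.17.

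Mesonephric genes had 2 lower of 16 and none higher, with a median of -0.22. The pool holds whole embryos, so a ratio near 0 cannot show how free of mesonephros the gonads were. Pax2 and Pax8, the nephric duct factors, were at -0.24 and 0.79, neither called. Eya1 averaged -2.56, although its dimmer probe averaged 0.10, and Wnt7b averaged -1.65. Interstitial progenitor genes had 1 higher and 2 lower of 18, with a median of -0.07. Tcf21 was the higher gene, and Lhx2 and Meox1 (-2.64), both also of limb or somite, were the lower ones. Pdgfra was at -0.36 and Nr2f2 at 1.10, neither called.

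Hox genes mark position along the body axis. Paralogues 1 to 8 had 4 lower and 1 higher of 23, with a median of -0.66, and paralogues 9 to 13 had 3 lower and 1 higher of 15, with a median of -0.08. The lower ones were Hoxa2 (-3.08), Hoxb2 (-2.77), Hoxb5 (-2.20) and Hoxb1 (-1.81), then Hoxa11 (-3.13), Hoxd13 (-2.92) and Hoxb9 (-2.25). A second probe averaged -0.37 for Hoxb2, -0.95 for Hoxb9 and -2.27 for Hoxd13. Hoxa11 was well above background in the gonad on 8 arrays. Both higher genes were of the Hoxd cluster and neighbours in it by number: Hoxd9 at 2.44 (2.11 to 2.81) and Hoxd8 at 1.76 (1.27 to 2.35). Hoxd10 averaged 1.29 and was not called.

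Genes on the sex chromosomes bear on the labels, since all gonads were XY and the pool held both sexes. The pool held more XY than XX material: 4 and 2 embryos, and gonad pairs from 4 and 3. If each contributed alike, a Y-linked gene equally active in gonad and embryo would lie below the 2-fold limit. The count of Y-linked calls is therefore no check of the labels. Of 9 Y-linked genes tested, 2 were higher: Uba1y at 4.13 (2.49 to 6.22) and Rbmy at 3.46 (2.30 to 4.30). The pool signal of Rbmy was well above background on 6 arrays. Rbmy has many copies, and Uba1y an X-linked relative, so that other transcripts may add to their signals. Eif2s3y averaged 1.47 and was positive on all arrays, Kdm5d 0.70, Ddx3y 0.37 and Uty -0.02. Xist, the RNA that coats the inactive X, depended on the probe. Its brightest probe averaged 0.13 (-0.25 to 0.36), whereas 3 others averaged -6.23, -6.23 and -4.56 and were well above background in the gonad on 7, 0 and 0 arrays, against 20 each in the pool. Tsix, antisense to Xist, averaged -1.85 and was well above background in the gonad on 4 arrays. The array text does not give the strand each Xist probe reads, so Xist and Tsix cannot be told apart for the bright probe. Where the median of the probes stood for the gene, Xist was called lower at -5.29.

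Among higher genes with a known chromosome 20 of 364 (5.49%) were X-linked, against 14 of 575 (2.43%) among lower genes and 633 of 18161 (3.49%) among all genes tested.

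Some ratios differed among the genotypes. An F test among the 4 genotypes, in which dye and pool are the same on all arrays, called 867 genes (3.62%), or 513 with the letters of the sample names as a random block. The 867 included 47 of the 393 higher genes (11.96%) and 19 of the 657 lower genes (2.89%). Kctd14, a potassium channel domain protein, averaged 5.89 ± 0.32 in C57BL/6J, 2.81 ± 0.59 in 129S1/SvImJ gonads, 5.71 ± 0.35 in (B6x129S1)F1 and 5.74 ± 0.22 in (129S1xB6)F1 (SD, n = 5 each; limma F test adjusted p = 2.73e-08). The 5 arrays of 129S1/SvImJ lay below all the others. A sequence difference under the probe and a difference in RNA level cannot be told apart here.

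Zfp42, the pluripotency marker REX1, averaged 1.89 ± 0.51 in C57BL/6J, 4.20 ± 0.50 in 129S1/SvImJ gonads, 4.14 ± 0.42 in (B6x129S1)F1 and 4.37 ± 0.63 in (129S1xB6)F1 (SD, n = 5 each; limma F test adjusted p = 3.59e-05). All arrays of C57BL/6J were below those of the other genotypes. Tex19.1, a germ cell gene that restrains retrotransposons, averaged 3.196 ± 0.43, 3.89 ± 0.41, 4.75 ± 0.37 and 4.82 ± 0.38 in the same order. Matn2, a matrix protein, averaged 3.74 ± 0.10 in C57BL/6J and 2.30 ± 0.36 in 129S1/SvImJ, with both F1 means between them. Mageb4 averaged 4.91 ± 0.33 in (B6x129S1)F1 and 3.95 ± 0.29 in (129S1xB6)F1. Both means were above the 2.96 ± 0.44 of C57BL/6J and the 3.37 ± 0.45 of 129S1/SvImJ. The pool signal of Mageb4 was well above background on only 11 arrays, so these ratios and their F test rest on pool signals near background. Of the lower genes, Prdm16, a brain and brown fat regulator, averaged -2.80 ± 0.40 in C57BL/6J and -4.08 ± 0.23 in 129S1/SvImJ.

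Of the 867 genes, 676 had both F1 means between those of the strains. The means spanned more than 1 log2 unit in 442 genes and more than 2 in 88. Only 2 of the genes tested were called higher in 1 genotype and lower in another. Trim12a, a tripartite motif gene, averaged 2.97 ± 0.54 in C57BL/6J, -2.80 ± 0.36 in 129S1/SvImJ gonads, 1.75 ± 0.28 in (B6x129S1)F1 and 1.66 ± 0.18 in (129S1xB6)F1 (SD, n = 5 each). Ptprg, a receptor tyrosine phosphatase, averaged 1.49 ± 0.19, -3.53 ± 0.29, 0.53 ± 0.16 and 0.55 ± 0.15 in that order. A second probe averaged 1.05 for Trim12a and 0.71 for Ptprg. Those are means over all 20 arrays, so they do not show whether the second probe also changes sign in 129S1/SvImJ. For both genes a sequence difference under the probe and a difference in RNA level cannot be told apart.

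**Figure D5:**
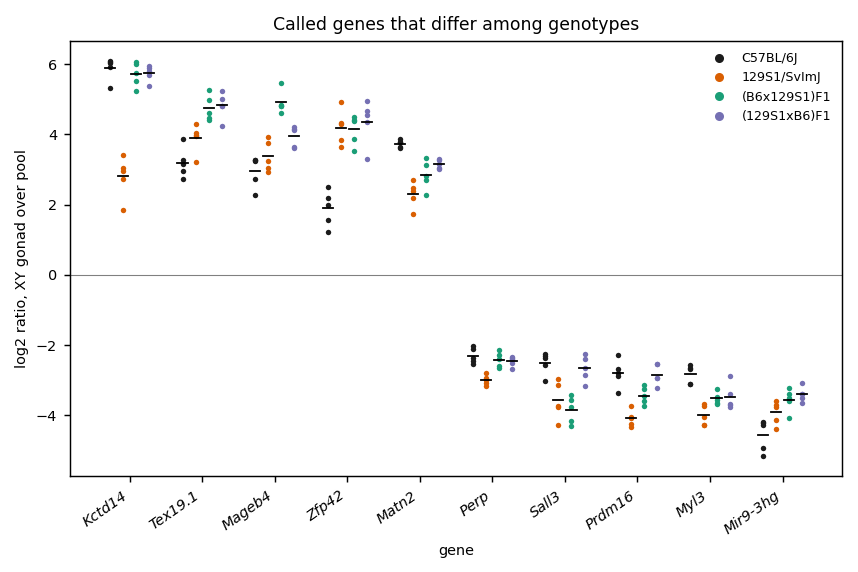
Log2 ratio of gonad over pool (vertical axis) on each array, by genotype, for the 10 called genes named for the smallest F test p among genotypes (horizontal axis), with black bars at group means (n = 5). Kctd14 separates 129S1/SvImJ (2.81) and Zfp42 separates C57BL/6J (1.89) from the other genotypes.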

How the data were processed

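Per the file headers, Agilent Feature Extraction 9.1.3.1 with protocol GE2-v5_91_0806 wrote each deposited scanner file, with a spot intensity per channel, background-subtracted and dye-normalized as processed signals. The deposited value table holds log2 ratios of the same arrays, and each of its columns correlated with the gonad over pool ratio of its array at 0.935 to 0.960, so its direction is that ratio; how it was centred is not given in the sources used here. Its column medians were 0.000537 to 0.0417.

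The ratio used is log2 of the processed Cy5 over the processed Cy3 signal, without control spots and outlier flags, with spots of 1 probe averaged. The brightest passing probe stood for each gene. RefSeq tables renamed 22951 probes by accession, 6659 by symbol and 3109 by synonym, and 8455 kept the array's name. One limma 3.58.1 fit (R 4.3.3) over 20 arrays had 1 coefficient per genotype, treat at log2 1, and an F test among genotypes, with Benjamini-Hochberg adjustment over 23951 genes. The pool enters as a fixed value. Members, lists and tests were chosen with earlier results of these data known, and list counts are descriptions without a test.

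Genes were named by this rule: the 20 largest and 20 smallest mean ratios among called genes with 1 sign on all arrays, passing over clone, RIKEN and predicted names; up to 4 called members of each list with the largest ratios, up to 2 against its direction, and its defining markers; the 5 called genes in each direction with the smallest F test p; and sex-chromosome checks with Sox9. Others are said to be chosen later. Some genes this rule takes in are not reported here.

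The test was run on simulated data with 23951 genes, with normal noise that was independent between arrays. In the data the fitted correlation was 0.11 within slides and 0.14 within letters of the sample names, which the simulation leaves out. For gonad against pool it recovered 98% of genes set at a log2 ratio of 3, 90% at 2, 46% at 1.5 and 2% at 1.25, with 0 false calls. All other genes had a true ratio of 0, far from the 2-fold limit, so false calls near that limit were not tested. For differences among genotypes it recovered 44% at 0.5, 82% at 1, 92% at 1.5 and 96% at 2, with 10 false calls.

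Alternatives covered background correction, dye normalization, the deposited ratios, filters on dim probes, the size to be passed, the choice of probe, slide, and the letters of the sample names, which may mark litters. Each genotype had 5 arrays, spread over 4 of 5 slides. Slide 1 held only arrays of the 2 strains and slide 5 only arrays of the 2 hybrids, so there strain against hybrid and slide cannot be told apart. Slide 5 was also the dimmest in Cy5, with a mean net median signal of 88.5, against 139 to 173 on the others. Without slide 5 the fit called 325 higher and 559 lower genes, and 686 that differed among genotypes. Several litters per strain were used per the series' design text, but which array came from which litter is not given. The sample names held 2 letters each in C57BL/6J and (129S1xB6)F1, and 3 each in 129S1/SvImJ and (B6x129S1)F1. All C57BL/6J arrays but K2 carried the letter H. The F test p values of named genes come from the fit without letters. Precision is limited by these array numbers, and all spread is between gonad pairs, not between pools. Figures were drawn with matplotlib 3.10.9.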

Additional observations from a re-analysis of the deposited data

Results flagged for a closer look

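Each named ratio and list median was examined within the 5 arrays of each genotype. Of 544 such sets, 38 (6.99%) had an array whose gap to its nearest neighbour, over the range of the set, passed Dixon's critical value of 0.71. Chance flags about 1 in 20 such sets.

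Array H1 of C57BL/6J gave 9 of the 38, each the highest of its set. In liver genes its ratio was 2.78 for Afp, 1.54 for Rbp4, 0.33 for Ttr, -0.98 for Ambp and -2.45 for Fabp1, and the liver list median was 1.30. It also had the highest ratios of Foxa2 (-1.16), Csrp3 (-3.90) and Rhox6 (5.94). Array K2 of the same genotype was lowest for Kctd14 (5.32) and for the bipotential gonad list (0.77), and highest for Myh7 (-3.26) and Dct (3.67). Array H2 was lowest for Fdxr (1.12), and H4 for Rbmy (2.84).

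In 129S1/SvImJ, array A6 was highest for Nhlh2 (-4.63) and Dlx1 (-3.44), and A3 for Cyp11a1 (2.88). Array G3 was lowest for Dppa5a (4.32) and for the list of Hox paralogues 9 to 13 (-0.48).

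In (B6x129S1)F1, array C2 was highest for Etnk2 (5.19), Fdxr (2.48) and the endothelial list (0.65). Array C3 was highest for Acta1 (-2.73), C4 for Sox2 (-2.31) and Mageb4 (5.47), and F2 for the mesonephros list (0.0599). Array E1 was lowest for Dhh (4.16) and Hoxb9 (-2.72), and F2 for Uty (-1.13).

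In (129S1xB6)F1, array L4 was highest for Myh3 (-0.995) and Afp (-3.70) and lowest for the early ovary list (0.0701). Array M3 was highest for Mgam (5.19) and Ambp (-3.95), M6 for Inhbb (6.37) and L2 for Lrrn4 (3.46). The lowest coelomic list median (0.67) was on M6.

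The ratios of 15 named genes differed among the 4 genotypes by limma's F test over all genes. The adjusted p was 2.73e-08 for Kctd14, 3.59e-05 for Zfp42, 5.80e-05 for Mageb4, 0.000123 for Matn2, 0.000231 for Prdm16, 0.000261 for Tex19.1 and 0.000331 for Zfp975. It was 0.00133 for Myl3, 0.00177 for Sall3, 0.00346 for Perp, 0.0039 for Uba1y, 0.00527 for Mir9-3hg, 0.00902 for Sox2, 0.0129 for Inhbb and 0.0131 for Dppa5a. For Uba1y the means were 2.92 in C57BL/6J, 4.04 in 129S1/SvImJ gonads, 4.57 in (B6x129S1)F1 and 4.98 in (129S1xB6)F1, and for Inhbb the mean of 129S1/SvImJ (5.10) was lowest. Zfp975 was highest in 129S1/SvImJ (5.96) and lowest in C57BL/6J (4.61).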

How the results depend on the processing

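In none of the alternatives did a called gene turn its direction. Of the counts over all genes, 96 of 103 alternatives stayed within 1.5 times the values reported, and these did not: normexp with loess called 200 higher and 357 lower genes, a threshold of 1.5-fold 860 and 1200, a test against 0 with no minimum size 5971 and 4304, and letters of the sample names as a random block left 513 genes that differed among genotypes, against 867. The test against 0 also raised the higher share of calls to 58.1%, against 37.4%. Leaving out 1 array at a time gave 360 to 397 higher genes, 615 to 659 lower genes and 648 to 923 that differed. Of 3835 values of named genes under other settings, 71 lost their call (20 of them with normexp and loess), 6 gained one and 8 changed sign, all 8 in genes never called by the reported fit. The ratio of Xist was -0.0205 with median scaling and -5.29 by the median of its probes. The ratio of Uty was 0.0107 with normexp and loess, and leaving out 1 array at a time put it between -0.0814 and 0.0442. The calls lost most often were those of Fdxr (16 settings), Dhh (9), Afp (6), Chrng (6) and Snrpn (5). Of 1040 list medians 33 moved beyond the replicate spread. Leaving out H1 with L4, or M6, was chosen after seeing the data and gave 363 and 642, or 380 and 636, genes higher and lower. No paired analysis was run, because nothing in the labels says that the numbers in the sample names pair arrays between genotypes. With slide as a block the counts were 388, 658 and 910 as a fixed term and 388, 657 and 974 as a random term. The causes were not tested. Signal over background limits the 89 lower genes measured in the gonad on fewer than 15 arrays.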

Other observations

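Families of transcription factors were grouped by symbol after their values were seen, and no test compared them; over all genes tested 1.64% were higher and 2.74% lower. The 41 forkhead genes tested had 5 lower and 1 higher, Foxo6, at 2.42. The 9 Pax genes had 4 lower, the 12 Nkx genes 4 lower, the 5 Irx genes 3 lower and the 13 Tbx genes 2 lower, with none higher. The 8 Lhx genes had 3 lower and 1 higher, Lhx9. The 19 Sox genes had 2 lower and none higher.

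Array H4 of C57BL/6J had high ratios in other genes of the interferon response: Mx2 was at 5.03 on H4, against -0.20 to 0.92 on the rest, and Ifit1 at 3.93, against -0.26 to 0.58. These genes were picked after their values were seen.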
